A study of Mus musculus with 7 samples.

Results

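Cholesterol and fatty acid synthesis were examined through 36 genes, chosen by name as enzymes of both pathways and regulators that control them, out of 39179 Ensembl gene IDs in the deposited table. The choice was made with earlier results of these data known. Shares over all tested genes therefore stand beside the counts as description, not as a test. Of the 36 genes, 6 encode the SREBP regulators, 16 enzymes of sterol synthesis and 14 enzymes of fatty acid synthesis and activation; 35 passed the filter on low values, and the desaturase gene Scd1, with normalized read counts of 2.35 to 5.79 in Jmjd1c libraries and 2.41 to 6.12 in control libraries, did not. The libraries came from LSK cells of mouse bone marrow, the fraction that lacks lineage markers, carries Sca-1 and Kit, and holds stem cells and multipotent progenitors, sorted from mice of 7 weeks and strain C57/BL6. The Jmjd1c group held 3 libraries of genotype Jmjd1c f/f Vav1Cre, where Cre recombinase, driven across blood cells, acts on a floxed gene for a putative histone demethylase. The control group held 4 libraries from Vav1Cre mice, so both groups carried the Cre transgene. The sources used here do not say how many animals gave each library, or whether libraries came from separate animals, so a p-value here covers no more than the scatter among 7 libraries, and that scatter may be technical.

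Cells make sterols and fatty acids from acetyl-CoA. SREBP proteins are held in the membrane of the endoplasmic reticulum by the escort SCAP and the retention proteins INSIG; when sterols run low, SCAP carries SREBP to the Golgi, where proteases release a transcription factor that turns on the enzymes. SREBP1, from Srebf1, acts mostly on fatty acid genes, and SREBP2, from Srebf2, mostly on sterol genes. Proliferating blood progenitors use both pathways to build membranes.

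Values are normalized read counts, the deposited gene counts divided by a size factor for each library, and fold changes are Jmjd1c over control on the log2(value + 1) scale with their standard error. Recovered reads in genes ran from 4416762 to 6253793 in Jmjd1c libraries and from 4303712 to 6436519 in control libraries, and the 36 genes together held 11195 to 15664 reads per Jmjd1c library and 9929 to 15805 per control library. Jmjd1c itself had 294, 244 and 254 in Jmjd1c 1 to 3 (normalized read counts), against 458, 466, 516 and 512 in control 1 to 4, with no overlap (log2 fold change -0.89 ± 0.09, limma adjusted p = 0.00407; two-sided exact permutation p = 0.0286, the smallest that 35 splits allow). Which exons are floxed is not given in the sources used here. The markers Kit (5880 to 7268 in Jmjd1c libraries, 4778 to 6700 in control libraries) and Ly6a, which encodes Sca-1 (728 to 839 and 694 to 915), were detected in every library. Slamf1, another of 12 LSK markers examined, had 30.9 to 55.2 in Jmjd1c libraries and 27.8 to 44.8 in control libraries. Of the 35 tested genes of the pathways, 3 rose by limma at an adjusted p under 0.05 and none fell, where 1.8% of the 12813 genes tested over the whole table were called, 1.51% higher and 0.289% lower. The groups did not overlap for 9 of the 35, 8 higher and 1 lower, against 16.8% of all tested genes. At an unadjusted p under 0.05, 10 were higher and 1 was lower, against 11.9% and 7.84% of all tested genes. With edgeR the same 3 genes were called (1.54% of all genes called higher), and with DESeq2 6 of the 34 that it gave an adjusted p (4.18%), neither calling any lower.

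Promoter windows of the genes on which the results turn are shown first, since SREBP proteins act through sterol response elements together with NF-Y, which binds CCAAT boxes, and Sp1, which binds GC boxes. They cover 250 bases before to 50 after a RefSeq transcription start, and 30 of the 36 genes had at least 1 window, 40 windows in all. Capitals mark exact matches on either strand to TCACNCCAC, the sterol response element as searched here, CACGTG (E-box), CCAAT or GGGCGG (GC box). Srebf1, Fasn and Acsl3 were the genes called higher, and Hmgcs1, an early enzyme of the sterol arm, is set beside them. Of the 3 windows of Srebf1, the most downstream is given, since it alone holds both a CCAAT and a GC box. The RefSeq build is GRCm38.p6, and sequences read 5′ to 3′ on the strand of the gene.

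Srebf1 (chr11:60210422-60210721, minus strand): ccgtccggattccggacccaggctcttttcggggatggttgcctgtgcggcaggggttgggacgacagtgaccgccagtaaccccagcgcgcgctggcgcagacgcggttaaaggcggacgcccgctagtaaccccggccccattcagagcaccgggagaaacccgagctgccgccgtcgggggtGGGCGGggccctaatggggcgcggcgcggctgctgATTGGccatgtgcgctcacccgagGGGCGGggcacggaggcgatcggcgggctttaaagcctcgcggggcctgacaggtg
Fasn (chr11:120824498-120824797, minus strand): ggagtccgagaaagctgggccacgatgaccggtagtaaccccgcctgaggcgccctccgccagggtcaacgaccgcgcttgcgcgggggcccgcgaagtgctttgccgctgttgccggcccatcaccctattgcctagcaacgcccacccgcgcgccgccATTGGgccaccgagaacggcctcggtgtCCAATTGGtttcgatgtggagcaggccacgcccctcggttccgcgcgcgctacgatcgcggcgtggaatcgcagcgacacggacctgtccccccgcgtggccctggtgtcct
Acsl3 (chr1:78657575-78657874, plus strand): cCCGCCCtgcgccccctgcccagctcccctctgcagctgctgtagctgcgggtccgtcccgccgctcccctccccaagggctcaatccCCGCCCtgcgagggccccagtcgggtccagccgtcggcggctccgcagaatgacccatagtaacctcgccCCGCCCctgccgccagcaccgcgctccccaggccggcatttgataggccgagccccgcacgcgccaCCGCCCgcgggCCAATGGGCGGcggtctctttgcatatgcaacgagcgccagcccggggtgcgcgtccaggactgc
Hmgcs1 (chr13:119690101-119690400, plus strand): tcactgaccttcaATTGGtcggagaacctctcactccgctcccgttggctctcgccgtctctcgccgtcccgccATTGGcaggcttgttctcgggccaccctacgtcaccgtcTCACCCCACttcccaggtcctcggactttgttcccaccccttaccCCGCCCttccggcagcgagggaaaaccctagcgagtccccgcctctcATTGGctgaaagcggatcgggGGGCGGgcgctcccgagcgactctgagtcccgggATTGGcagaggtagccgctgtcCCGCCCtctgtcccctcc

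Of these 4 windows, that of Hmgcs1 alone held the searched sterol response element, as TCACCCCAC from position -137 counted from the start. The Fasn window held 3 CCAAT matches, of which 2 overlap as CCAATTGG, and no GC box. The Acsl3 window held 5 GC boxes and 1 CCAAT, and the Srebf1 window 2 GC boxes and 1 CCAAT. Over the 40 windows, the sterol response element occurred in 2 (5%), in Hmgcs1 and in 1 window of Acsl1, against 1.24% of all 32851 RefSeq windows of this length. CCAAT was in 60% of the 40 windows and 75% of the 16 windows of sterol genes, against 37.4% of all windows, and the GC box in 72.5% and 81.2%, against 35.7%. The E-box was in 17.5% of the 40 windows, against 7.15% of all. These matches describe letters in short windows, and a gene can have several windows. The set of all windows was not limited to genes that passed the filter on low values, so it is unlike the 36 genes in expression.

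Among the regulators, both SREBP genes and the escort lay wholly higher in Jmjd1c libraries, and 1 retention gene wholly lower. Of 6 SREBP regulators, 1 rose, Srebf1, none fell, and 5 did not pass the threshold. Over all tested genes, 1.51% were called higher and 0.289% lower. The median log2 fold change of the 6 regulators was 0.34, against -0.0083 over all tested genes. Groups did not overlap for 4 of the 6, 3 higher and 1 lower in Jmjd1c, where 9.74% of all tested genes lay wholly higher and 7.1% wholly lower.

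Srebf1 (ENSMUSG00000020538; mm10 chromosome 11, 60199089 to 60222581, minus strand), the transcription factor of fatty acid genes, had 237, 335 and 375 in Jmjd1c 1 to 3 (normalized read counts), against 192, 192, 163 and 188 in control 1 to 4. All Jmjd1c libraries lay above all control libraries, with Jmjd1c 1 the lowest of the 3. Srebf1 rose 1.69-fold (log2 fold change 0.75 ± 0.14, 95% interval 0.44 to 1.07, limma adjusted p = 0.0343), and its adjusted p ran from 0.000184 to 0.201 over the alternatives. Scap, which encodes the escort of SREBP, had 138, 169 and 191 in Jmjd1c 1 to 3, against 110, 133, 82.8 and 89.2 in control 1 to 4. The groups lay apart by the narrow gap between Jmjd1c 1 and control 2, and the difference did not pass over all genes (log2 fold change 0.69 ± 0.17, limma adjusted p = 0.0649; DESeq2 adjusted p = 0.0167). Scap shares 985 exonic bases, 13.2% of its exons, with an antisense gene, 5830462I19Rik, and whether the counting used strand is not given in the sources used here. Srebf2, the transcription factor of sterol genes, had 456, 454 and 506 in Jmjd1c 1 to 3, against 422, 385, 410 and 389 in control 1 to 4. It too lay wholly higher in Jmjd1c, by less (log2 fold change 0.23 ± 0.08, 95% interval 0.07 to 0.40, limma adjusted p = 0.134). Transcript GC content was 57.9% for Srebf2 and 59.1% for Scap, against a median of 49.4% for all tested genes. With a correction for GC content and length, the log2 fold change was 0.0014 for Srebf2 (limma adjusted p = 0.996). For Scap it was 0.42 with that correction (limma adjusted p = 0.196).

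The retention proteins had log2 fold changes of opposite sign. Insig1, itself a target of SREBP, had 138, 198 and 173 in Jmjd1c 1 to 3, against 126, 101, 126 and 142 in control 1 to 4. Jmjd1c 1 lay within the control range, and the log2 fold change of 0.44 ± 0.15 did not pass (limma adjusted p = 0.142). Insig2 had 155, 134 and 151 in Jmjd1c 1 to 3, against 173, 216, 174 and 185 in control 1 to 4. Every Jmjd1c library lay below every control library, with a log2 fold change of -0.34 ± 0.11 that did not pass (limma adjusted p = 0.138). Mbtps1, the site-1 protease that makes the first cut in SREBP, spanned 592 to 622 in Jmjd1c libraries, inside the control range of 508 to 765 (log2 fold change -0.13 ± 0.12, limma adjusted p = 0.591).

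**Figure D1:**
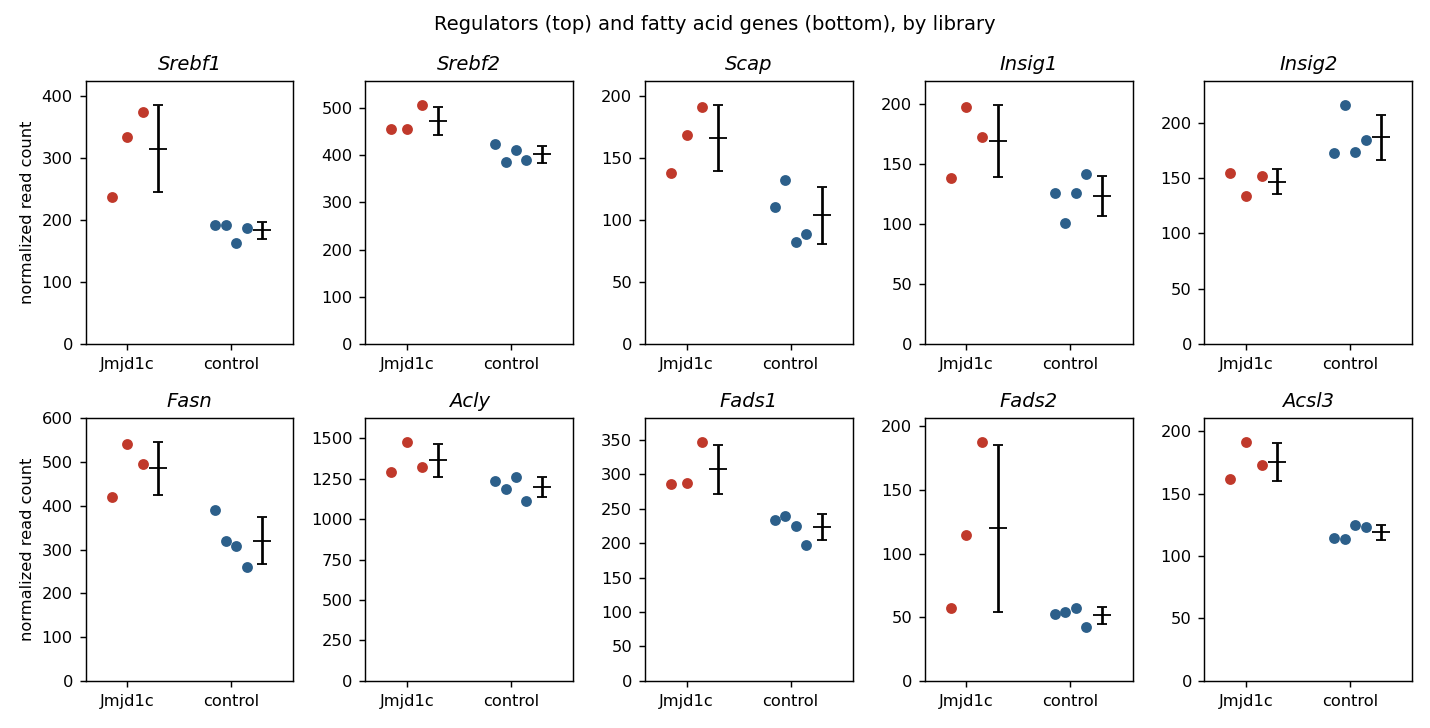
Normalized read counts of 5 regulators (top row) and 5 fatty acid genes (bottom row), with 1 point per library, Jmjd1c at left and control at right, and a dash with a bar for mean and SD. The 3 Jmjd1c libraries of Srebf1, at 237 to 375, sit above the 4 control libraries at 163 to 192, while for Fads2 Jmjd1c 1 lies at 57.1, level with the highest control library.

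Genes of the fatty acid arm were mostly higher in Jmjd1c libraries by small amounts, and 2 passed the threshold. Of the 13 tested, Fasn and Acsl3 rose, none fell and 11 did not pass. The shares called over all tested genes were 1.51% higher and 0.289% lower. Log2 fold changes were positive for 12 of 13, against 48.4% of all tested genes, with a median of 0.16. Those of Elovl5, Elovl1, Acsl1 and Acsl4, at 0.02 to 0.05, were below their standard errors. They changed sign in at least 1 fit that left out a library, as did that of Scd2. In Jmjd1c, 4 of 13 genes lay wholly higher (Acly, Fasn, Fads1 and Acsl3), against 9.74% of all tested genes.

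Fasn (ENSMUSG00000025153; mm10 chromosome 11, 120805846 to 120824547, minus strand), the fatty acid synthase that builds palmitate, had 421, 541 and 497 in Jmjd1c 1 to 3 (normalized read counts), against 391, 320, 309 and 261 in control 1 to 4. The lowest Jmjd1c library stood just above control 1, and the other control libraries lay well below. Fasn rose 1.52-fold (log2 fold change 0.61 ± 0.13, 95% interval 0.32 to 0.89, limma adjusted p = 0.0431, and 0.00138 to 0.299 over the alternatives). Acsl3 (ENSMUSG00000032883; mm10 chromosome 1, 78657825 to 78707743, plus strand), an acyl-CoA synthetase of the endoplasmic reticulum and lipid droplets that activates fatty acids, had 161, 192 and 173 in Jmjd1c 1 to 3, against 114, 113, 125 and 123 in control 1 to 4. The groups were clearly separated, with a narrow spread among control libraries. Acsl3 rose 1.47-fold (log2 fold change 0.55 ± 0.11, 95% interval 0.31 to 0.79, limma adjusted p = 0.0375, and 0.0151 to 0.21 over the alternatives). Its exons share 244 bases with Utp14b on the same strand, a gene with a mean of 13.9 normalized read counts.

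All 3 calls were lost in several of the fits that left out 1 library. Without Jmjd1c 2, Jmjd1c 3, control 1, control 2 and control 3, the 231 calls over all genes numbered 3, 9, 72, 3 and 3. Srebf1 and Acsl3 were not called without Jmjd1c 2, Jmjd1c 3, control 1, control 2 or control 3, with adjusted p of 0.201, 0.12, 0.0538, 0.0666 and 0.104 for Srebf1 and of 0.21, 0.12, 0.0627, 0.0721 and 0.104 for Acsl3. Fasn was not called without Jmjd1c 2, Jmjd1c 3, control 2 or control 3, with adjusted p of 0.223, 0.14, 0.0829 and 0.131. Over all fits that left out 1 library, the log2 fold changes ran from 0.62 to 0.95 for Srebf1, 0.52 to 0.71 for Fasn and 0.49 to 0.61 for Acsl3. Transcript GC content was 58.4% for Srebf1 and 57.9% for Fasn, against a median of 49.4% for all tested genes and 55.4% for genes called higher, and 43.2% for Acsl3. With a correction for GC content and length, Srebf1 had 0.53 (limma adjusted p = 0.0699), Fasn 0.37 (adjusted p = 0.121) and Acsl3 0.62 (adjusted p = 0.0465).

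**Figure D2:**
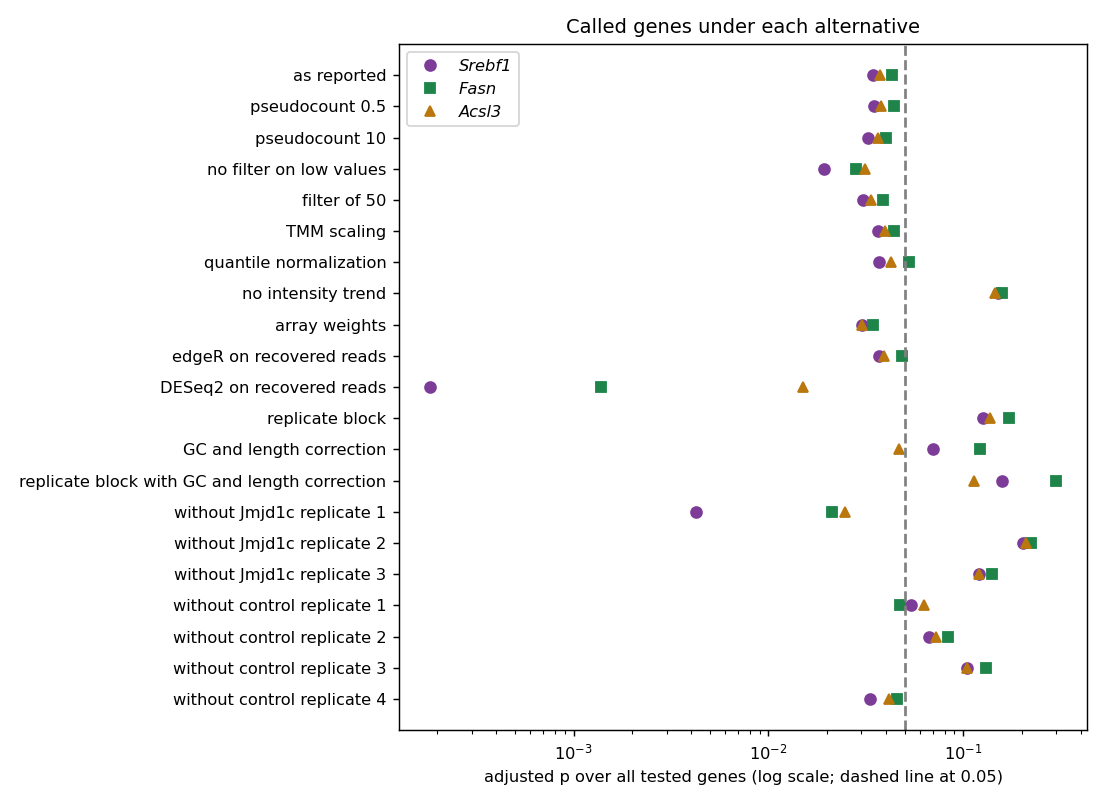
Adjusted p over all tested genes (log axis, dashed line at 0.05) of Srebf1, Fasn and Acsl3 for the fit as reported and for 20 alternative fits, 1 row each. Symbols to the right of the line are no longer called; without Jmjd1c 2 all 3 lie between 0.201 and 0.223.

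The front-end desaturases Fads1 and Fads2, which make polyunsaturated fatty acids and lie divergently on chromosome 19 with 81141 bases between them, differed in how their libraries spread. Fads1 had 286, 287 and 348 in Jmjd1c 1 to 3 (normalized read counts), against 234, 239, 225 and 198 in control 1 to 4. The groups did not overlap, and the gene, at 0.45 ± 0.10 on the log2 scale, was just short of the threshold (limma adjusted p = 0.0537; DESeq2 adjusted p = 0.0183). Fads2 had 57.1, 114 and 188 in Jmjd1c 1 to 3, against 52.8, 54.3, 57.1 and 42.0 in control 1 to 4. Jmjd1c 1 was level with the control libraries, whereas Jmjd1c 3 was the highest of all. Its log2 fold change of 1.05 ± 0.31, the largest of the 36 genes, did not pass (limma adjusted p = 0.103; DESeq2 adjusted p = 0.00465); it was 0.65 without Jmjd1c 3, and larger and called without Jmjd1c 1 (limma adjusted p = 0.00818).

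The enzymes upstream of Fasn had smaller log2 fold changes. Acly, which makes cytosolic acetyl-CoA from citrate, had 1289, 1480 and 1323 in Jmjd1c 1 to 3, against 1236, 1186, 1260 and 1116 in control 1 to 4. The groups lay apart, by 0.18 ± 0.07 on the log2 scale, which did not pass (limma adjusted p = 0.186). Acaca, the acetyl-CoA carboxylase that makes malonyl-CoA, had 88.6 to 95.2 in Jmjd1c libraries and 69.1 to 88.8 in control libraries, overlapping at control 1 (log2 fold change 0.27 ± 0.14, limma adjusted p = 0.30).

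Of the delta-9 desaturases, Scd2 was by far the more abundant in these cells. Scd2 had 1341, 1703 and 1046 in Jmjd1c 1 to 3 (normalized read counts), against 1422, 1151, 1335 and 938 in control 1 to 4, with the groups interleaved (log2 fold change 0.16 ± 0.16, limma adjusted p = 0.618). Per kilobase of exon it stood at 250 in Jmjd1c and 222 in control libraries, against 0.906 and 0.838 for Scd1, which is a close relative of Scd2 and could share reads with it. The elongases Elovl1, Elovl5 and Elovl6 had log2 fold changes of 0.03, 0.02 and -0.04, with limma adjusted p of 0.866, 0.886 and 0.868. For Elovl5, which extends polyunsaturated chains, the 95% interval of -0.12 to 0.16 leaves room for a small difference. Among the other acyl-CoA synthetases, Acsl5 had 1276 to 1471 in Jmjd1c libraries and 1180 to 1335 in control libraries (log2 fold change 0.15 ± 0.07, limma adjusted p = 0.256). Acsl1 and Acsl4 had log2 fold changes of 0.03 and 0.05 (limma adjusted p = 0.89 and 0.826).

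**Figure D3:**
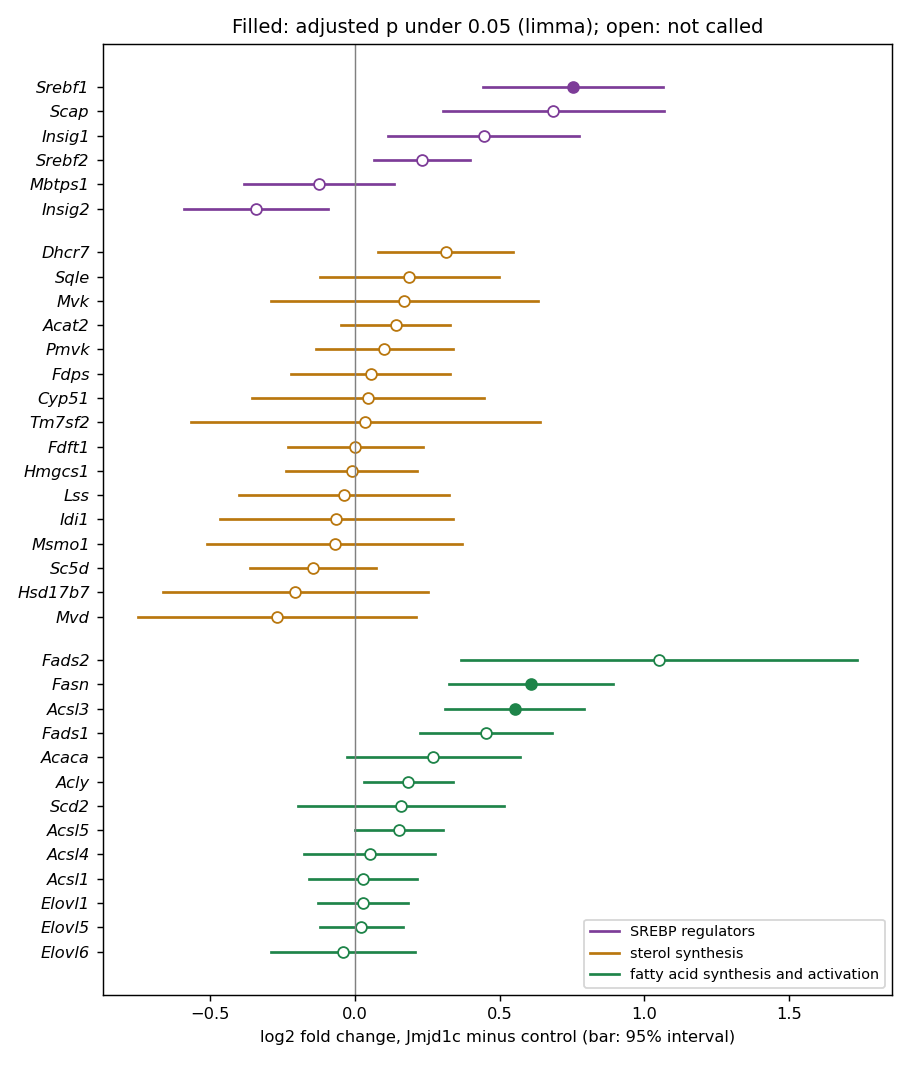
Log2 fold changes, Jmjd1c minus control, of the 35 tested genes with 95% intervals from limma, grouped as regulators (top), sterol synthesis (middle) and fatty acid synthesis and activation (bottom). Filled points are called at an adjusted p under 0.05: Srebf1 (0.75), Fasn (0.61) and Acsl3 (0.55), while the sterol genes lie on both sides of 0 with none filled.

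The sterol arm showed no called gene. Of 16 enzymes tested, none rose or fell by limma, where 1.51% of all tested genes were called higher and 0.289% lower. With so few genes, a count of 0 is near those shares. At an unadjusted p under 0.05, 1 was higher and none lower, against 11.9% and 7.84% of all tested genes. By edgeR none of the 16 was called, and by DESeq2 none of the 15 it gave an adjusted p. The median log2 fold change of the 16 enzymes was 0.02, with 9 positive and 7 negative, and single genes ran from -0.27 to 0.31. The lowest and highest bounds of their 95% intervals were -0.75 and 0.64, so differences of that size in the genes of lowest count could not be resolved.

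Dhcr7, which catalyses the last step to cholesterol from 7-dehydrocholesterol, was the enzyme with the smallest p. It had 431, 465 and 431 in Jmjd1c 1 to 3 (normalized read counts), against 296, 361, 418 and 358 in control 1 to 4. The groups did not overlap, with control 3 close below Jmjd1c 1 and 3, and the log2 fold change of 0.31 ± 0.11 did not pass (limma adjusted p = 0.145).

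Of the entry enzymes, Acat2, the cytosolic thiolase that joins acetyl-CoA units, had 369 to 405 in Jmjd1c libraries and 324 to 393 in control libraries (log2 fold change 0.14 ± 0.09, limma adjusted p = 0.388). Hmgcs1, which makes HMG-CoA, had 329, 355 and 291 in Jmjd1c 1 to 3, against 368, 296, 344 and 303 in control 1 to 4, with the groups interleaved. Its log2 fold change was -0.01 ± 0.10, with a 95% interval of -0.24 to 0.22. The mevalonate kinases and decarboxylase Mvk, Pmvk and Mvd had 0.17, 0.10 and -0.27 (limma adjusted p = 0.69, 0.64 and 0.526), and Mvd had means of only 34.2 ± 6.37 in Jmjd1c and 41.4 ± 7.32 in control libraries (SD, n = 3 and 4). The isoprenoid enzymes Idi1 and Fdps had -0.06 and 0.05 (limma adjusted p = 0.877 and 0.846).

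Several enzymes from squalene onward spread widely among the Jmjd1c libraries. Cyp51, the lanosterol demethylase, had 320, 424 and 238 in Jmjd1c 1 to 3, against 377, 240, 315 and 319 in control 1 to 4. Msmo1, the sterol C4 methyl oxidase, had 244, 335 and 161 in Jmjd1c 1 to 3, against 297, 214, 247 and 240 in control 1 to 4. In both genes Jmjd1c 2 was the highest library of its group and Jmjd1c 3 the lowest of all 7. Sqle, the epoxidase that commits squalene to sterols, had 308, 422 and 302 in Jmjd1c 1 to 3, against 354, 250, 321 and 279 in control 1 to 4. Log2 fold changes were 0.04 ± 0.18 for Cyp51, -0.07 ± 0.20 for Msmo1 and 0.19 ± 0.14 for Sqle (limma adjusted p = 0.916, 0.879 and 0.485). Fdft1, the squalene synthase, had 0.00 ± 0.11 and Lss, the lanosterol cyclase, -0.04 ± 0.17 (limma adjusted p = 0.997 and 0.921); 18.3% of the exonic bases of Fdft1 overlap the abundant antisense gene Ctsb. Sc5d (-0.15), Hsd17b7 (-0.21) and Tm7sf2 (0.04), all of the later steps, had limma adjusted p of 0.439, 0.62 and 0.956, and Tm7sf2 was near the filter, with means of 21.3 ± 4.23 in Jmjd1c and 21.0 ± 5.69 in control libraries (SD, n = 3 and 4).

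This library pattern ran through the sterol arm. Among the 3 Jmjd1c libraries, 12 of 16 sterol genes were highest in Jmjd1c 2 and 13 of 16 lowest in Jmjd1c 3, against 30.5% and 34.9% of all tested genes. Relative to each gene's mean over the 7 libraries, the median sterol gene stood at 0.02, 0.14 and -0.11 on the log2 scale in Jmjd1c 1 to 3, and at 0.14, -0.15, 0.03 and -0.06 in control 1 to 4. The regulators were ordered otherwise: their median stood at 0.01, 0.25 and 0.26 in Jmjd1c 1 to 3, and at -0.17, -0.04, -0.11 and -0.07 in control 1 to 4, and Jmjd1c 3, the library with the highest Srebf1, Srebf2 and Scap, held the lowest Cyp51, Msmo1, Idi1 and Lss. The fatty acid genes stood at 0.03, 0.13 and 0.12 in Jmjd1c 1 to 3, and at -0.03, -0.12, -0.06 and -0.18 in control 1 to 4, with every Jmjd1c library above every control library. The lowest sterol medians were in control 2 and Jmjd1c 3, with 4303712 and 4416762 reads the shallowest libraries, and the highest in control 1, the deepest with 6436519 reads, but the order was not one of depth throughout. Control 3, with 4422836 reads, stood at 0.03 beside Jmjd1c 3 at -0.11, the deep control 4, with 6108710 reads, stood at -0.06, and Jmjd1c 2, with 4985314 reads, was almost as high as control 1; the part of depth was not tested.

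**Figure D4:**
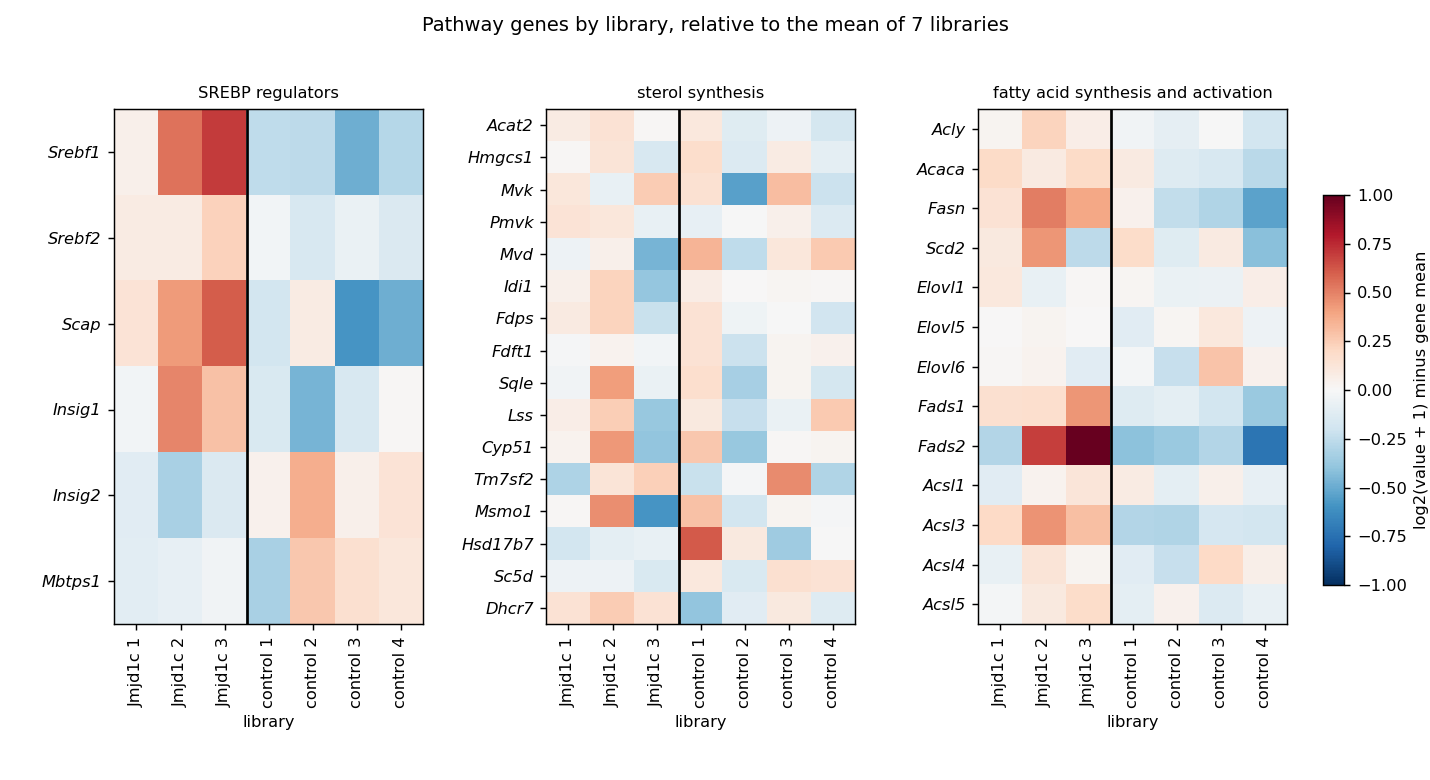
Each cell is the log2(value + 1) of a gene in a library minus that gene's mean over 7 libraries (red above, blue below, colour scale from -1 to 1), with Jmjd1c 1 to 3 left of the black line and control 1 to 4 right of it. In the sterol panel (centre) Jmjd1c 2 and control 1 are mostly red, with medians of 0.14 each, and Jmjd1c 3 and control 2 mostly blue, at -0.11 and -0.15.

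Compared per kilobase of exon, the 5 most abundant of the 36 genes were all of the fatty acid arm. Elovl5 led at 375 normalized read counts per kilobase in Jmjd1c and 370 in control libraries, followed by Acsl5 (283 and 255), and Elovl1, Acly and Scd2 made up the rest of the 5 highest genes in both groups. Among the 16 sterol enzymes the highest was Acat2, at 152 and 138 per kilobase, and the highest regulator Srebf2 in Jmjd1c libraries (65.7) and Mbtps1 in control libraries (63.4). By this measure Srebf1 ranked 16 of 36 in Jmjd1c and 24 of 36 in control libraries. Acaca, the gate to fatty acid synthesis, was near the bottom, at 5.44 in Jmjd1c and 4.52 in control libraries. Lengths are of all annotated exons of a gene, which are long for genes with many transcripts.

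Other genes of lipid metabolism, 129 in 6 lists, gave 114 tested genes, of which 3 rose and none fell by limma. Over all tested genes, 1.51% were called higher and 0.289% lower. At an unadjusted p under 0.05, 16 were higher and 7 lower, against 11.9% and 7.84% of all tested genes. With edgeR 3 were called higher (1.54% of all genes) and with DESeq2 5 (4.18%), neither calling any lower. The same shares over all genes apply beside the counts of each list below. In the list for sterol sensing, uptake, export and esterification, 2 of 23 rose. Abca7, a lipid exporter, had 208, 264 and 342 in Jmjd1c 1 to 3 (normalized read counts), against 165, 176, 167 and 167 in control 1 to 4 (log2 fold change 0.65 ± 0.14, limma adjusted p = 0.0474). Its Jmjd1c libraries lay wholly above its control libraries, with Jmjd1c 3 the highest. Among 11 SREBP cofactors, Med15, a Mediator subunit that SREBP binds, rose without overlap between the groups, with 357, 427 and 404 in Jmjd1c 1 to 3, against 298, 303, 286 and 319 in control 1 to 4 (0.39 ± 0.09, limma adjusted p = 0.0478). Neither Abca7 nor Med15 was called without Jmjd1c 2, Jmjd1c 3, control 1, control 2 or control 3, and Abca7 also not without control 4; in these fits adjusted p ran from 0.0549 (Abca7 without control 4) to 0.232 (Med15 without Jmjd1c 2).

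None of the other 4 lists had a gene called by limma. Of 21 other fatty acid synthesis genes, 3 had an unadjusted p under 0.05; edgeR called none and DESeq2 called Slc25a1, the mitochondrial citrate exporter that feeds Acly. Slc25a1 had 108, 154 and 178 in Jmjd1c 1 to 3, against 70.4, 100, 88.6 and 74.3 in control 1 to 4, wholly higher in Jmjd1c (log2 fold change 0.79 ± 0.19, limma adjusted p = 0.0546). The fatty acid transporter Slc27a1 was at 0.34 ± 0.12 on the same scale (limma adjusted p = 0.148). Of 22 genes of glycerolipid and phospholipid synthesis, 4 had an unadjusted p under 0.05, edgeR called none and DESeq2 called Agpat2, an acyltransferase of phosphatidic acid synthesis (0.44 ± 0.10, limma adjusted p = 0.057). Gpam, the mitochondrial glycerol-phosphate acyltransferase, had a log2 fold change of 0.81 ± 0.27, with 49.2 ± 17.2 normalized read counts in Jmjd1c and 26.8 ± 5.30 in control libraries (SD, n = 3 and 4; limma adjusted p = 0.138).

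Of 15 other sterol and isoprenoid genes, none had an unadjusted p under 0.05, and edgeR and DESeq2 called none. Nus1, of dolichol synthesis, was at -0.30 ± 0.16 on the log2 scale (limma adjusted p = 0.318). Of 22 genes of fatty acid oxidation, none was called by limma, edgeR or DESeq2, and 4 had an unadjusted p under 0.05, 2 higher and 2 lower. Log2 fold changes were negative for 14 of the 22, with a median of -0.09, where 6605 of all 12813 tested genes were negative. Hadha, the trifunctional protein subunit, had -0.25 ± 0.08 and Acadm, the medium-chain dehydrogenase, -0.17 ± 0.07 (limma adjusted p = 0.138 and 0.182).

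Markers of other cells that a sort can let through are given beside these values, since in bulk RNA fewer cells of a type cannot be told apart from less RNA per cell. The summed stromal and adipocyte markers (13 genes) were 1200 to 1255 in Jmjd1c libraries and 1251 to 1515 in control libraries, most of it Pecam1, an adhesion molecule of endothelial and blood cells, and 6 of the 13 passed the filter with none called. Of the genes that define fat cells, Plin1, Cidec and Lep were at 0 in all 7 libraries and Adipoq reached at most 1.03 in Jmjd1c and 0.874 in control libraries. Other members of this list were detected, and 4 of the 13 lay wholly lower in Jmjd1c libraries. Of those 4, only Fabp4 and Cxcl12 passed the filter, and 7.1% of all genes that passed it lay wholly lower. Fabp4, a fatty acid binding protein of fat and endothelial cells, had 4.12 to 11.7 in Jmjd1c libraries and 16.6 to 42.2 in control libraries (limma adjusted p = 0.0842). Cxcl12, a stromal chemokine, had 8.22 to 16.6 in Jmjd1c libraries and 19.2 to 39.8 in control libraries (limma adjusted p = 0.0992). Lepr and Kdr, the others, did not pass the filter and stayed at or below 2.48 in Jmjd1c libraries and 6.03 in control libraries. Lpl, a lipase that macrophages also express, had 101 to 177 in Jmjd1c libraries and 154 to 469 in control libraries, with overlap. Col1a1 and Col1a2 went the other way, also with overlap (log2 fold change 0.96 and 0.56, limma adjusted p = 0.642 and 0.594). Summed T and NK cell markers (12 genes) were 1633 to 2276 in Jmjd1c libraries and 1745 to 1975 in control libraries, of which Nkg7 alone gave 1545 to 2158 and 1479 to 1853. Cd4 had 38.7 to 75.3 in Jmjd1c libraries and 61.8 to 195 in control libraries, and the other 10 genes of that list, Cd3e among them, stayed at or below 11.7 in Jmjd1c libraries and 22.7 in control libraries. The summed macrophage markers (15 genes) were 3112 to 5151 in Jmjd1c libraries and 3355 to 12625 in control libraries, where control 4 stood apart; control 4 was also the lowest control library for 6 of 13 fatty acid genes, against 26.4% of all tested genes. Summed markers of mast cells and basophils (10 genes) were 2438 to 4843 in Jmjd1c libraries and 5923 to 9154 in control libraries, with no overlap and 1 of 8 tested genes, Prss34, called lower, and those of neutrophils (14 genes) 26956 to 33219 and 32972 to 38024. Markers of B and plasma cells (14 genes) were 10131 to 29681 in Jmjd1c libraries, with the highest in Jmjd1c 3, and 18216 to 24060 in control libraries. Megakaryocyte markers (10 genes) were 787 to 1181 in Jmjd1c libraries, again with the highest in Jmjd1c 3, and 710 to 849 in control libraries, with 1 of 8 tested genes, Itga2b, called higher (341 to 483 in Jmjd1c libraries and 260 to 294 in control libraries, log2 fold change 0.59, limma adjusted p = 0.0374). Without control 4, the log2 fold changes of Srebf1, Fasn and Acsl3 were 0.77, 0.52 and 0.57, and all were still called. Without Jmjd1c 3, where sums of B and plasma cell and megakaryocyte markers peaked, they were 0.62, 0.59 and 0.56, with none called. The part of other cells in the differences of these 3 genes was not tested.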

How the data were processed

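Bulk RNA of sorted LSK cells was measured in 3 Jmjd1c and 4 control libraries, made with a low-input SMARTer kit per the labels' protocols. The deposited values are a signal per gene: per the submitters' processing notes the tools were Trim Galore 0.2.8, STAR (no version), HTSeq 0.6.1p1 and DESeq 1.18.0, with build mm10; the sources used here give no annotation release, strand setting or filter. Dividing each deposited column by the value of 1 read gave whole numbers for 100% of values above 0 (tolerance 0.01 of a read). Symbols matched 37607 of 39179 IDs; positions, exon lengths and transcript GC content came from GENCODE M21 (GRCm38), and promoters from RefSeq.

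Genes that reached 10 in 3 or more libraries were tested with limma 3.58.1 (R 4.3.3) on log2(value + 1), with intensity trend, no further scaling and no covariate (the labels give no batch); Benjamini-Hochberg adjustment ran over 12813 genes, with a threshold of 0.05. The steps were tested on simulated data. Alternatives were pseudocounts of 0.5 and 10, no filter and a filter of 50, TMM and quantile scaling, no trend, array weights, edgeR 4.0.16 and DESeq2 1.42.0 on recovered reads, a replicate block, a GC and length correction by splines (136 genes without annotation left out), a threshold of 0.1, and leaving out each library. The 36 genes and all lists were chosen with earlier results of these data known. Named genes are the 36, Jmjd1c, and from each further list its called genes or, where none was called, the 2 with the smallest p. Some genes that this rule names are not reported here. A planned comparison of paralog proteins was not run.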

Additional observations from a re-analysis of the deposited data

Results flagged for a closer look

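Srebf1 in control 3, at 163 normalized read counts, lay apart from the other control libraries at 188 to 192, the gap taking 0.861 of the group's range, above Dixon's 95% critical value for 4 samples. The summed macrophage markers of control 4, at 12625, lay apart from 3355 to 4808 in the other control libraries. The summed T and NK cell markers of control 1, at 1975 (1974.5 before rounding), lay above the other control libraries at 1745 to 1774. Of 46 groups of 4 control libraries examined, 3 were flagged, where chance flags about 1 in 20.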

How the results depend on the processing

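Counting error at 4303712 to 6436519 reads per library limits the genes of low count. The count of 231 called genes was 0 without intensity trend (2213 at an unadjusted p under 0.05), 590 with DESeq2, 14 with a replicate block, 40 with the GC and length correction, 40 with both, 716 at a threshold of 0.1, and 3 to 631 without each library. The log2 fold change of Jmjd1c was -0.89 without intensity trend (adjusted p = 0.117, no longer called) and -0.97 to -0.83 without each library. Called regulators (1) numbered 0 without trend, with the block, with the correction and with both, 2 with DESeq2 and at a threshold of 0.1, and 0 to 2 without each library; their median of 0.34 was 0.21 with the correction and 0.18 with both. Called fatty acid genes (2) numbered 1 with quantile normalization and with the correction, 0 without trend, with the block and with both, 4 with DESeq2, and 0 to 4 without each library. Called genes of the other lists (3) numbered 0 with quantile normalization, without trend, with the block, with the correction and with both, 5 with DESeq2 and at a threshold of 0.1, and 0 to 7 without each library. The cause of these shifts was not tested. Same-numbered libraries correlated at -0.15, -0.002 and 0.017 in their deviations from group means. No Jmjd1c library correlated best with the control library of its own number, and the largest value was 0.32, for Jmjd1c 1 with control 4. Deviations from the means of only 3 and 4 libraries cannot show whether the libraries were paired.

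Signs changed in 16 of 35 genes, none of them called. With array weights the log2 fold changes were 0.021 for Hmgcs1, 0.0096 for Idi1, 0.058 for Lss, 0.061 for Msmo1 and -0.0046 for Tm7sf2. With the replicate block they were -0.0011 for Fdps, 0.044 for Lss and -0.060 for Tm7sf2. With the GC and length correction they were -0.026 for Fdft1, 0.057 for Hmgcs1 and 0.037 for Idi1. With both they were 0.0023 for Elovl6, -0.011 for Fdft1, -0.0082 for Fdps, 0.020 for Hmgcs1, 0.024 for Idi1, 0.020 for Lss, -0.0099 for Pmvk, -0.0045 for Srebf2 and -0.073 for Tm7sf2. Fdft1 was -0.00067 with TMM, -0.026 with quantile normalization, -0.011 with edgeR and -0.015 with DESeq2. Without each library, values ran from -0.025 to 0.091 for Acsl1, -0.019 to 0.12 for Acsl4, -0.16 to 0.25 for Cyp51, -0.019 to 0.071 for Elovl1, -0.013 to 0.060 for Elovl5, -0.13 to 0.047 for Elovl6, -0.071 to 0.050 for Fdft1, -0.043 to 0.18 for Fdps, -0.078 to 0.066 for Hmgcs1, -0.19 to 0.11 for Idi1, -0.17 to 0.14 for Lss, -0.32 to 0.21 for Msmo1, -0.015 to 0.34 for Scd2 and -0.075 to 0.20 for Tm7sf2.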
